A study of Sus scrofa with 599 samples.

Results

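Circadian clock genes were followed through the fat of pigs that gained weight and then lost it. The 10 members, CLOCK, PER1, PER2, PER3, CRY1, CRY2, NR1D1, NR1D2, DBP and TEF, were chosen by gene symbol and not by their values. Rows of protein-coding genes (PCGs) in the expression tables carry Ensembl identifiers, and 9 of the 10 members matched 1 of the 21280 rows through the pig annotation. PER3 matched none, so that its expression was not analysed here and only its chromatin was read. Adult female Bama miniature pigs, a small Chinese pig breed, were kept on a normal diet (NC), were fed a high-fat diet to gain weight (WG), or gained weight in the same way and were then held on restricted calories to lose it (WL). Adipose tissue came from 1 subcutaneous depot, the upper layer of backfat (ULB), and from 3 visceral ones, the greater omentum (GOM), the mesenteric adipose (MAD) and the retroperitoneal adipose (RAD). RNA-seq libraries of rRNA-depleted total RNA numbered 9 NC, 45 WG and 10 WL in GOM, 12, 36 and 10 in MAD, 12, 39 and 10 in RAD, and 5, 38 and 10 in ULB. The pigs were fasted before they were killed, and the hour of sampling is not given in the sources used here.

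The mammalian clock is a loop of transcription and repression that runs in most cells. CLOCK pairs with BMAL1 and binds E-boxes in the promoters of the PER and CRY genes, whose proteins return to the nucleus and repress CLOCK and BMAL1. NR1D1 and NR1D2 (REV-ERBα and REV-ERBβ) are haem-binding nuclear receptors that are E-box targets themselves, repress the BMAL1 gene through ROR elements, and are known in fat for their part in adipocyte differentiation and lipid metabolism. DBP and TEF are PAR-bZIP transcription factors that carry the rhythm to output genes through D-boxes. Because these transcripts oscillate over the day, the level in a tissue depends on the hour at which it is taken.

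RefSeq windows of 250 bases directly before the annotated gene start (Sscrofa11.1) were searched on both strands for 4 motifs of this loop. The E-box was searched as CACGTG, the cyclic AMP response element (CRE) as TGACGTCA, the D-box as TTATGTAA or TTACGTAA, and the ROR element as AANTN followed directly by GGTCA. Of 19556 pig promoters of that length, 6.39% held the E-box, 1.70% the CRE, 0.869% the D-box and 0.470% the ROR element. The windows of PER2, CRY1, CRY2, NR1D1 and NR1D2 held none of the 4 motifs. Windows of 3 other members are shown as examples, picked because they carry matched letters. Each is written 5′ to 3′ on the gene's own strand with the matched letters in capitals. No match in them overlapped another.
PER1, chr12:53376724-53376973, minus strand: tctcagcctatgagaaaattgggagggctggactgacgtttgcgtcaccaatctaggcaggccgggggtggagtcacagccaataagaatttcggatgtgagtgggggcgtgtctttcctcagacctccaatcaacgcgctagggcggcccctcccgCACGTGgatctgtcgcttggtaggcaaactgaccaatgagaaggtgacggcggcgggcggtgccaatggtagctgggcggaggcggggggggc
PER3, chr6:68487384-68487633, plus strand: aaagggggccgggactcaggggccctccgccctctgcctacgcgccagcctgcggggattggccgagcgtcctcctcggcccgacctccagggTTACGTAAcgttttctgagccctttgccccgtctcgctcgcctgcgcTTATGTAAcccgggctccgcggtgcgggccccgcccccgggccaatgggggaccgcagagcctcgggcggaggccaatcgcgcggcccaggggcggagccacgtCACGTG
DBP, chr6:53993045-53993294, minus strand: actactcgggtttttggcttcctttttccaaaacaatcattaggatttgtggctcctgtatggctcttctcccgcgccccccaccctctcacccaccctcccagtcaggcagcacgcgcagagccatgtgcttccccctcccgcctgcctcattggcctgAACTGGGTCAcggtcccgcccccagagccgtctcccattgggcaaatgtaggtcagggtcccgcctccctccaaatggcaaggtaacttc

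In PER1 the E-box began 93 bases before the gene start. PER3 had an E-box that ended at the last base of the window and D-boxes at 157 and 110 bases before the start, while DBP had a ROR element at 90 bases. A match is a string of letters, and no binding was measured here.

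Before the results, 2 properties of the libraries have to be given, because they moved with the groups and with several members. Levels are given as TPM, a read count corrected for gene length and library size. The share of PCG TPM that fell on the 13 protein genes of mitochondrial DNA split the libraries into a set of 136 with 0.653% to 7.65% and a set of 100 with 11.2% to 38.8%, and no library lay between. These are called mtDNA-low and mtDNA-high libraries below. The split was found in the data and is not a batch that the labels name. All 40 WL libraries were mtDNA-low and all 9 NC GOM libraries were mtDNA-high. In the other NC groups 3 of 12 (MAD), 3 of 12 (RAD) and 2 of 5 (ULB) were mtDNA-low, and WG held both sets in every depot (27 and 18 in GOM, 18 and 18 in MAD, 23 and 16 in RAD, 20 and 18 in ULB, low and high). In WG, 42 of 45 replicate numbers had all their depots in a single set. For NC against WL in GOM the set and the diet cannot be told apart. The comparisons of RNA were therefore also fitted within each set where both groups had at least 2 libraries. The second property is the PCG share, the part of the summed TPM of all transcript classes in the tables that fell on PCGs. It was below 88% in 40 libraries, which included 7 of 9 in NC GOM, 6 of 12 in NC RAD against 0 of 39 in WG RAD, and 6 of 10 in WL of both GOM and MAD. Of the 31 member calls in nutritional and depot comparisons, 20 held within the libraries of 88% or more, 10 lost their call and 1 changed sign, and these are named beside the results. Total PCG counts ran from 3337098 to 22939420 with a median of 16791659. The defining adipocyte markers (ADIPOQ, PLIN1, CIDEC, LEP, FABP4, LIPE, GPD1 and PCK1) were present throughout, with a summed level whose group medians ran from 7397 TPM in NC GOM to 22417 TPM in WL ULB.

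Over all libraries, NR1D2 was the most abundant member with a median of 84.5 TPM, followed by CLOCK with 55.8, PER1 with 36.1, CRY2 with 21.6, TEF with 13.9, CRY1 with 13.7, PER2 with 5.35, DBP with 5.10 and NR1D1 with 2.38 TPM. The abundant receptor and the scarce receptor of the REV-ERB pair thus stood at opposite ends of the list. The members differed far more in how much they varied than this order shows. The highest of the 12 group medians exceeded the lowest 25.6-fold for NR1D1, 2.91-fold for CRY2, 2.15-fold for PER1, 2.12-fold for DBP, 2.07-fold for NR1D2, 1.87-fold for TEF, 1.78-fold for PER2, 1.74-fold for CRY1 and 1.58-fold for CLOCK. NR1D1 therefore stood alone in its range, and CLOCK was the flattest.

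NR1D1, the receptor that represses the BMAL1 gene, was highest in NC, where the libraries ran from a lowest level of 8.51 over a median of 14.2 to a highest of 32.9 TPM in GOM, 1.16, 16.4 and 20.1 TPM in MAD, 0.808, 9.38 and 59.8 TPM in RAD, and 1.08, 13.9 and 22.4 TPM in ULB. In WG the lowest, median and highest libraries held 0, 1.98 and 33.5 TPM in GOM, 0.202, 6.10 and 36.3 TPM in MAD, 0.112, 1.05 and 24.3 TPM in RAD, and 0.174, 3.57 and 72.3 TPM in ULB. WL libraries were at 0.482, 2.09 and 5.54 TPM in GOM, 0.182, 1.55 and 3.66 TPM in MAD, 0.0400, 0.641 and 1.55 TPM in RAD, and 0.244, 1.12 and 5.03 TPM in ULB. In GOM no WL library reached the lowest NC library, whereas in the other depots WL overlapped the lowest NC libraries, and WG spanned both. The WG library listed at 0 was GOM replicate 35, the shallowest of all. In these bulk samples, fewer cells of a type and less RNA per cell cannot be told apart.

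**Figure D1:**
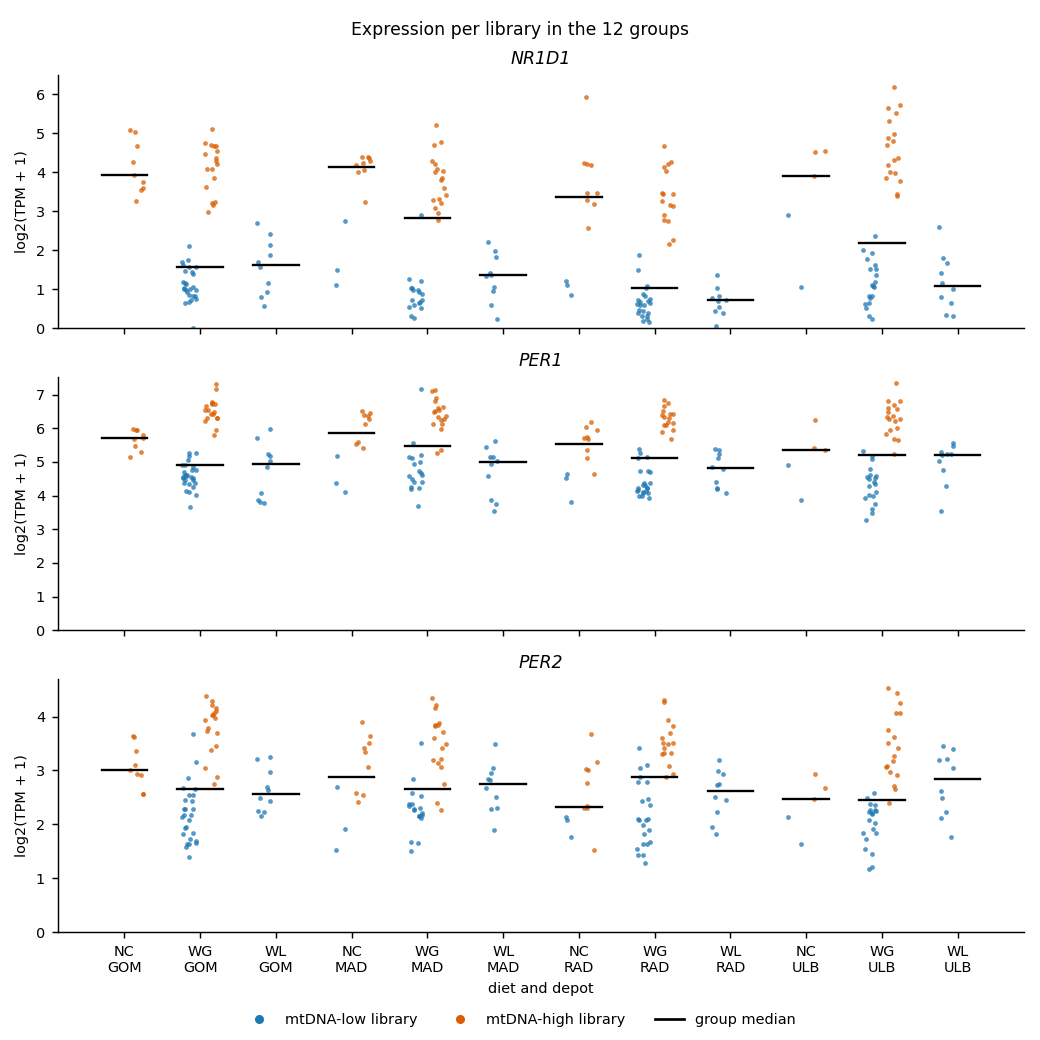
Levels of NR1D1, PER1 and PER2 on the log2(TPM + 1) scale (y axis) in each RNA-seq library of the 12 groups of diet and depot (x axis), with mtDNA-low libraries in blue, mtDNA-high libraries in orange and the group median as a bar. In WG the blue and orange points of NR1D1 form separate clouds. The WL groups hold only blue points. By their medians of NR1D1 they lie below the orange points of WG and level with or above its blue points.

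The wide spread of NR1D1 in WG followed the library sets. Medians of mtDNA-low and mtDNA-high WG libraries were 1.03 and 17.98 TPM in GOM, 0.732 and 13.1 TPM in MAD, 0.536 and 9.23 TPM in RAD, and 1.12 and 22.4 TPM in ULB. The sets did not overlap in GOM, RAD or ULB, and in MAD they overlapped by 1 library of each. Of all detected PCGs, 5.52% (GOM), 1.55% (MAD), 3.80% (RAD) and 9.04% (ULB) had sets that did not overlap. PER1, an immediate target of CLOCK and BMAL1 that also answers to glucocorticoid and cyclic AMP, was the other member with such a gap. Its WG medians in mtDNA-low and mtDNA-high libraries were 22.6 and 90.2 TPM in GOM, 24.04 and 84.2 TPM in MAD, 17.9 and 78.5 TPM in RAD, and 19.8 and 78.4 TPM in ULB, without overlap in GOM and RAD. An exception was mtDNA-low MAD replicate 6, whose 142 TPM was the highest PER1 level in that depot. Mean levels of PER2 were higher in the mtDNA-high set by 1.58 (GOM), 1.19 (MAD), 1.35 (RAD) and 1.44 (ULB) on the log2(TPM + 1) scale, with overlap in every depot. CLOCK differed by only 0.15 to 0.31 on that scale, and CRY1 went the other way, by -0.46 to -0.21. Since the sets were drawn from the same libraries, these differences carry no test. The part that the mtDNA share has in the members' levels was not tested.

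Among nutritional states, 21 of 107 tests of a member passed adjusted p below 0.05 with a fold change above 1.5 in edgeR's quasi-likelihood test, 20 of them lower in the later state and 1 higher. Over the same 12 comparisons 17.2% of all tests of a PCG were called, so that the members' count lay near the background. The 3 contrasts of a depot share their samples, so their counts do not stand for separate evidence.

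NR1D1 was called lower in 8 of the 11 contrasts in which it was tested. From NC to WG its log2 fold change was -1.57 ± 0.54 (SE) in GOM (edgeR adjusted p = 0.0193, 26.7% of all tested PCGs were called there) and -1.71 ± 0.57 in RAD (adjusted p = 0.0158, 16.7% called), and it was not called in MAD (10.7% called) or ULB (2.38% called). From WG to WL it fell by 2.24 ± 0.72 on the log2 scale in MAD (adjusted p = 0.0154, 17.4% called) and by 3.17 ± 0.84 in ULB (adjusted p = 0.00621, 8.12% called), with no call by edgeR in GOM (5.26% called), where DESeq2 called it at -1.82 (adjusted p = 0.0205). In RAD it did not reach the detection limit in WG or WL and was not tested (6.37% called). From NC to WL its log2 fold change was -3.32 ± 0.38 in GOM (adjusted p = 3.85e-07), -3.25 ± 0.50 in MAD (adjusted p = 4.4e-05), -4.60 ± 0.65 in RAD (adjusted p = 1.46e-05) and -3.34 ± 0.62 in ULB (adjusted p = 0.00176), where 36.1%, 33.1%, 26.7% and 14.8% of all PCGs were called in these 4 depots in turn.

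Within the library sets most of these differences of NR1D1 were no longer called. In mtDNA-high libraries NC to WG in RAD stayed called, with a log2 fold change of -0.96 ± 0.33 (edgeR adjusted p = 0.0248, 14.9% called), and in GOM it was not (-0.42 ± 0.26, 12.8% called). Among mtDNA-low libraries the WG to WL values in MAD and ULB were 0.78 and 0.021, without a call, against falls of 2.24 and 3.17 over all libraries. No call of NR1D1 from NC to WL was left within mtDNA-low libraries in MAD (8.83% of all PCGs called), RAD (11.7% called) or ULB (10.6% called), groups that held 3, 3 and 2 NC libraries. The log2 fold changes there were -0.95 ± 0.61, -0.98 ± 0.54 and -1.47 ± 0.79, lower in WL but well short of those over all libraries. For NC to WL in GOM no fit within a set was possible. Within libraries of a PCG share of 88% or more, the values of NR1D1 from NC to WG in GOM (-1.59 ± 1.06) and RAD (-1.76 ± 0.75) and from WG to WL in MAD (-3.15 ± 1.26) were also not called, with edgeR adjusted p of 0.313, 0.129 and 0.205. In GOM the WG to WL value of NR1D1 within mtDNA-low libraries was 0.74 with edgeR adjusted p = 0.0587. That comparison gave no call of any member (8.38% of all PCGs called), nor did WG to WL in RAD within mtDNA-low libraries (5.45% called) or NC to WG in ULB within the mtDNA-low (0.426% called) and mtDNA-high (5.88% called) sets.

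NR1D2, the abundant partner of NR1D1, showed a decline in WL that did not follow the mtDNA sets. In ULB its lowest, median and highest levels were 83.5, 113 and 175 TPM in NC, 65.1, 115 and 167 TPM in WG, and 36.7, 92.1 and 133 TPM in WL. The WL group overlapped both others but reached lower than either. The log2 fold change was -0.62 ± 0.13 from WG to WL (edgeR adjusted p = 0.000691) and -0.79 ± 0.22 from NC to WL (adjusted p = 0.02), and the latter lost its call without NC ULB replicate 7 (-0.65, adjusted p = 0.0511). In mtDNA-low libraries of ULB the same contrasts gave -0.73 ± 0.15 (adjusted p = 0.000278, 13.3% of all PCGs called) and -1.20 ± 0.26 (adjusted p = 0.00966), the latter on 2 NC libraries. In MAD NR1D2 ran from 60.9 over a median of 87.9 to 183 TPM in NC and from 47.2 over 74.4 to 96.6 TPM in WL. It fell by 0.62 ± 0.15 on the log2 scale from NC to WL there (adjusted p = 0.00215), and by 0.97 ± 0.22 within mtDNA-low libraries (adjusted p = 0.0139, 8.83% called). Within libraries of a PCG share of 88% or more NR1D2 lost its calls, with -0.50 ± 0.14 from WG to WL in ULB (adjusted p = 0.0117, under the fold limit), -0.81 ± 0.24 from NC to WL in ULB (adjusted p = 0.0508) and -0.60 ± 0.23 from NC to WL in MAD (adjusted p = 0.0887). No contrast of NR1D2 was called in GOM or RAD. Adipocyte markers moved with the ULB contrast, with 4 of 8 called higher from WG to WL and summed levels of 8366 to 32030 TPM in WG and 16673 to 31641 TPM in WL. Their part in the fall of NR1D2 was not tested.

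**Figure D2:**
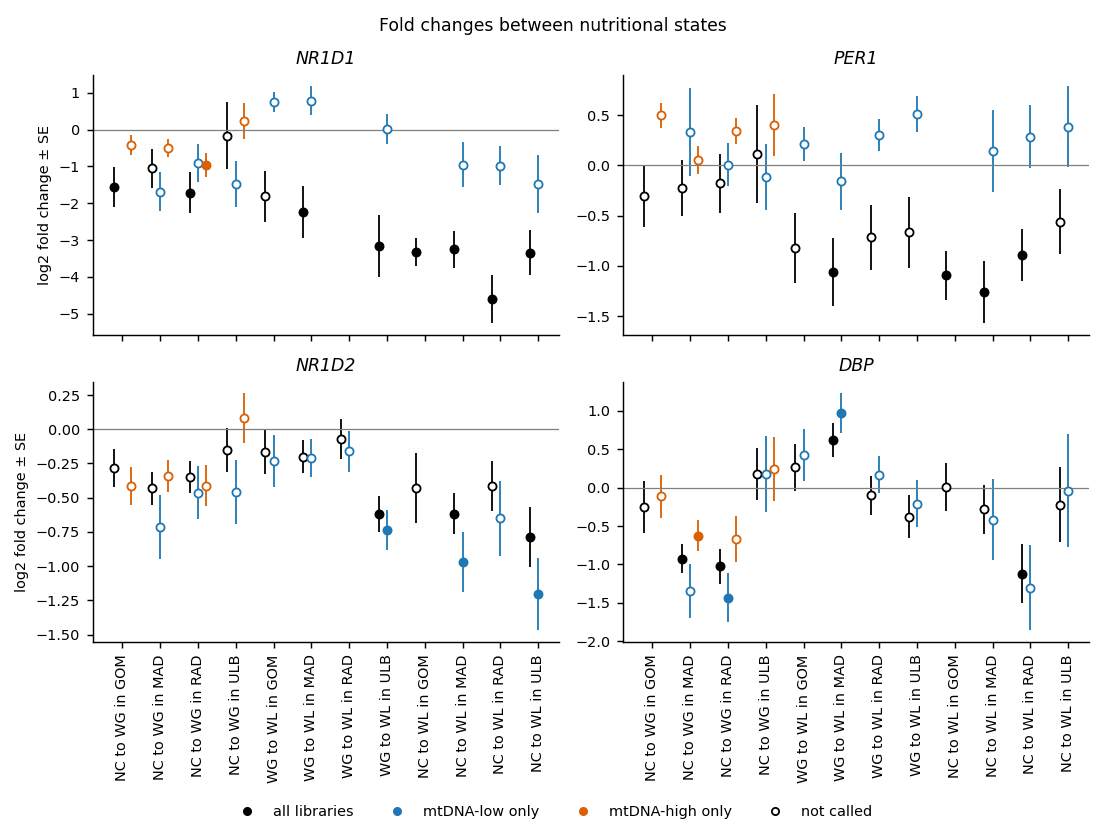
Fold changes on the log2 scale (y axis) of NR1D1, PER1, NR1D2 and DBP in the 12 comparisons of nutritional states (x axis), with bars of 1 SE, over all libraries (black), mtDNA-low libraries (blue) and mtDNA-high libraries (orange); filled points were called. The black points of NR1D1 and PER1 lie below 0 in the WL contrasts while their blue points lie near or above 0 or are not called, and the blue points of NR1D2 in ULB lie below 0 with the black ones.

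Of the PER genes, whose proteins are the limiting repressors of the loop, PER1 was called lower in 4 contrasts. Its NC libraries ran from 34.7 over a median of 51.6 to 62.4 TPM in GOM, 16.2, 58.3 and 89.9 TPM in MAD, and 12.9, 45.2 and 71.9 TPM in RAD, against 12.9, 29.8 and 61.5 TPM, 10.6, 30.7 and 48.7 TPM, and 15.99, 27.1 and 40.8 TPM in WL. The groups overlapped in all 3 depots. NC to WL gave log2 fold changes of -1.10 ± 0.25 in GOM (edgeR adjusted p = 0.000768), -1.26 ± 0.31 in MAD (adjusted p = 0.00219) and -0.90 ± 0.26 in RAD (adjusted p = 0.00783), and WG to WL in MAD gave -1.06 ± 0.33 (adjusted p = 0.0135). Within mtDNA-low libraries the NC to WL values changed sign, to 0.14 in MAD and 0.28 in RAD, the WG to WL value in MAD was -0.16, and none was called. Within libraries of a PCG share of 88% or more PER1 kept its call in GOM. There 7 of 9 NC and 6 of 10 WL libraries were left out. Those kept were all mtDNA-high in NC and all mtDNA-low in WL, so that library set and diet cannot be told apart in that call. PER1 lost the others, with NC to WL values of -1.43 in MAD (edgeR adjusted p = 0.0502) and -0.92 in RAD (adjusted p = 0.0607) and a WG to WL value of -1.18 in MAD (adjusted p = 0.241). In GOM, where PER1, PER2 and NR1D1 were all lower in WL than in NC, cell type markers moved too. Of 8 adipocyte markers 4 were called higher, with summed levels of 4881 to 8621 TPM in NC and 6593 to 15975 TPM in WL, and 3 of 3 erythrocyte markers were called higher, with 121 to 1916 TPM in NC and 1922 to 11127 TPM in WL. Of 8 macrophage markers 3 were called lower, with sums of 494 to 2485 TPM in NC and 688 to 2121 TPM in WL. The part of these cells in the 3 calls was not tested.

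PER2 was called lower once over all libraries, from NC to WL in GOM (log2 fold change -0.83 ± 0.19, edgeR adjusted p = 0.000762). It ran there from 4.87 over 7.09 to 11.5 TPM in NC and from 3.43 over 4.90 to 8.57 TPM in WL. All NC libraries of GOM were mtDNA-high and all WL libraries mtDNA-low, so that library set and diet cannot be told apart in that call. In ULB PER2 went the other way once the sets were kept apart. The mtDNA-low WG libraries of ULB held 1.25 to 4.99 TPM with a median of 3.40, and the WL libraries held 2.41 to 9.92 TPM with a median of 6.22, so that most WL libraries lay above the median of WG. PER2 rose there by 0.77 ± 0.19 (adjusted p = 0.0026, 13.3% of all PCGs called), whereas over all WG libraries the value was -0.22 ± 0.33 and not called.

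CRY1 and CRY2, the partners of PER in repression, were called in 0 of 12 nutritional comparisons each by edgeR and by DESeq2, with 3 of 12 at an unadjusted edgeR p below 0.05 for either gene. Below the fold limit, CRY1 had a log2 fold change of 0.51 ± 0.13 from NC to WG in RAD (edgeR adjusted p = 0.00262) and 0.40 ± 0.13 in MAD (adjusted p = 0.0228), with medians of 8.78 and 9.05 TPM in NC against 15.3 and 13.4 TPM in WG. Within mtDNA-high libraries the values were 0.37 in RAD (adjusted p = 0.0351) and 0.18 in MAD (adjusted p = 0.277), and within mtDNA-low ones 0.29 and 0.43 (adjusted p = 0.456 and 0.357). CRY2 had a log2 fold change of 0.47 ± 0.11 from WG to WL in GOM (adjusted p = 0.00238), where the median was 17.6 TPM in WG and 25.6 TPM in WL. It was 0.48 within mtDNA-low libraries (adjusted p = 0.0037). CLOCK, the activator, was called in 0 of 12 by both tools, with 2 at an unadjusted p below 0.05, and its group medians stayed between 40.8 TPM in NC GOM and 64.3 TPM in WL RAD.

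DBP, an output factor, fell on weight gain in MAD and RAD. In MAD its lowest, median and highest levels were 2.82, 6.25 and 18.03 TPM in NC, 1.63, 4.26 and 11.6 TPM in WG, and 2.57, 6.56 and 14.4 TPM in WL. The groups overlapped, with WG lowest by its median. NC to WG gave a log2 fold change of -0.92 ± 0.19 (edgeR adjusted p = 0.000719) and WG to WL gave 0.62 ± 0.23 (adjusted p = 0.0328), the single member call that was higher in the later state. That rise turned to -0.19 with a term for the PCG share set and to -0.56 within libraries of a PCG share of 88% or more, neither called, where 4 of the 10 WL libraries were left. Within mtDNA-low libraries the rise was 0.97 ± 0.26 (adjusted p = 0.00721, 13.6% of all PCGs called), and the fall was -0.62 ± 0.20 within mtDNA-high libraries (adjusted p = 0.0341, 8.36% called) and -1.35 within mtDNA-low ones (adjusted p = 0.0825, 0.643% called).

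In RAD DBP ran from 1.59 over a median of 8.21 to 15.03 TPM in NC, from 1.44 over 4.13 to 15.4 TPM in WG, and from 0.904 over 3.88 to 9.37 TPM in WL. WG and WL shared a low median while NC reached across both. It fell by 1.02 ± 0.23 on the log2 scale from NC to WG (edgeR adjusted p = 0.000405) and by 1.12 ± 0.38 from NC to WL (adjusted p = 0.0226). Within mtDNA-low libraries NC to WG gave -1.43 ± 0.32 (adjusted p = 0.00714, 5.09% of all PCGs called), whereas the -0.67 ± 0.30 within mtDNA-high libraries was not called (adjusted p = 0.0861). The NC to WL value of -1.30 ± 0.55 within mtDNA-low libraries was not called either (adjusted p = 0.132). Neither GOM nor ULB had a call of DBP. Macrophage markers moved with these contrasts. Their summed level ran from 226 to 824 TPM in NC and from 347 to 1767 TPM in WG of MAD, and 7 of 7 tested were called higher, against 3 of 7 in RAD, where they ran from 235 to 841 TPM in NC and from 379 to 2299 TPM in WG. From WG to WL in MAD all 5 T cell markers and all 5 B cell markers tested were called higher, with summed levels of 12.6 to 242 TPM (T cell) and 8.29 to 312 TPM (B cell) in WG and 30.9 to 658 TPM and 14.6 to 579 TPM in WL. The part of these cells in the calls of NR1D1, PER1, DBP and TEF in MAD was not tested.

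TEF, the close relative of DBP, was called once, from NC to WG in MAD, where it ran from 9.78 over 16.5 to 26.5 TPM in NC and from 6.42 over 11.6 to 31.6 TPM in WG. The ranges overlapped over most of their width. Its log2 fold change was -0.63 ± 0.14 (edgeR adjusted p = 0.00147), and neither the -0.45 ± 0.17 within mtDNA-high libraries (adjusted p = 0.0687) nor the -0.86 ± 0.23 within mtDNA-low ones (adjusted p = 0.104) was called. From WG to WL in MAD it gave 0.59 ± 0.18 within mtDNA-low libraries (adjusted p = 0.0179), with medians of 10.0 TPM in WG and 15.4 TPM in WL.

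Whether these effects differed between depots was tested as an interaction over all libraries, without a term for the pig or the replicate number. Libraries of different depots were thus treated as independent, although several can come from 1 pig. For NC to WG, WG to WL and NC to WL, 0 of 9 members passed in edgeR, where 8.80%, 6.41% and 8.32% of all PCGs did, and 1, 2 and 1 members had an unadjusted p below 0.05. A call in 1 depot and none in another was thus not shown to be a difference between depots for any member.

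Depots were then compared within WG, the group with the most libraries. Here the upper backfat stood apart. Over the 6 pairs of depots 10 of 54 member tests were called, all of them higher in ULB, where 10.8% of all tests of a PCG were called. GOM, MAD and RAD gave no call among themselves by edgeR or DESeq2 (GOM to MAD 6.27%, GOM to RAD 11.2% and MAD to RAD 5.40% of all PCGs called in edgeR), with 2, 4 and 1 of 9 members at an unadjusted edgeR p below 0.05.

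NR1D2 was the most regular of these. WG libraries of ULB held 65.1 to 167 TPM with a median of 115, against 39.4 to 133 TPM with a median of 80.4 in GOM, 41.2 to 144 TPM with a median of 77.9 in MAD and 45.3 to 127 TPM with a median of 79.5 in RAD. The visceral depots lay within a few TPM of each other by their medians, and all overlapped ULB. ULB was higher by 0.66 ± 0.08 on the log2 scale than GOM (edgeR adjusted p = 2.3e-11, 17.9% of all PCGs called), by 0.65 than MAD (adjusted p = 1.49e-10, 14.4% called) and by 0.61 than RAD (adjusted p = 2.84e-09, 9.27% called).

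CRY2 ran from 12.6 over a median of 30.1 to 68.3 TPM in ULB of WG, against 11.7, 17.6 and 29.1 TPM in GOM, 10.3, 20.98 and 41.9 TPM in MAD and 14.1, 20.8 and 43.1 TPM in RAD. The median of ULB lay above the highest GOM library. It was higher in ULB by 0.90 ± 0.12 than in GOM (edgeR adjusted p = 3.29e-10) and by 0.69 than in MAD (adjusted p = 1.9e-05), and the 0.54 against RAD was under the fold limit.

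DBP held 2.56 to 20.8 TPM with a median of 6.98 in ULB, and medians of 4.26 in MAD and 4.13 in RAD, with log2 differences of 0.88 (edgeR adjusted p = 1.53e-06) and 0.94 (adjusted p = 8.73e-07). TEF held 5.42 to 38.2 TPM with a median of 17.8 in ULB, and medians of 11.6 in MAD and 10.2 in RAD, with log2 differences of 0.61 (adjusted p = 4.79e-05) and 0.65 (adjusted p = 1.19e-05). Both output factors were thus called against MAD and RAD and not against GOM, where DBP and TEF had medians of 4.87 and 13.99 TPM. The highest DBP value of any group, 42.2 TPM in GOM replicate 35, came from 174 counts in the shallowest library.

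**Figure D3:**
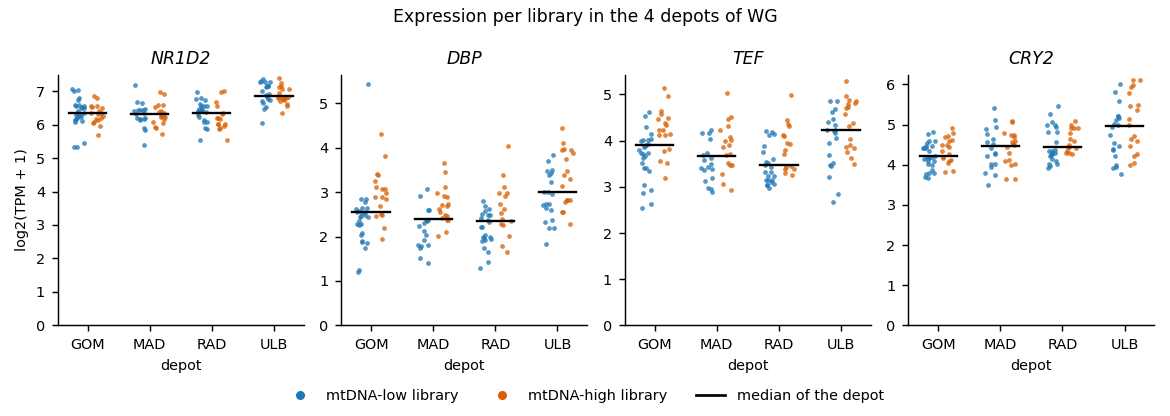
Levels of NR1D2, DBP, TEF and CRY2 on the log2(TPM + 1) scale (y axis) in the WG libraries of each depot (x axis), coloured by library set, with medians as bars. ULB has the highest median of the 4 depots for each gene, at 115, 6.98, 17.8 and 30.1 TPM.

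NR1D1 was called between depots only for RAD to ULB over all libraries, with a log2 fold change of 1.56 ± 0.46 (edgeR adjusted p = 0.0056). Within the sets, where its spread was smaller, RAD was below GOM by 0.96 in mtDNA-low libraries (adjusted p = 0.0017, 12.1% of all PCGs called) and by 0.67 in mtDNA-high ones (adjusted p = 0.0276, 11.7% called), and ULB was above RAD by 1.18 (9.49% called) and 1.40 (9.34% called). Each set taken alone gave 11 of 54 member calls, 10 higher and 1 lower. The mtDNA-low and mtDNA-high sets called 18.8% and 17.6% of all PCGs for GOM to ULB, 16.6% and 13.3% for MAD to ULB, 6.24% and 5.44% for GOM to MAD, and 5.31% and 4.24% for MAD to RAD, and no member was called in the last 2 pairs. In mtDNA-low libraries NR1D2 and CRY2 were higher in ULB than in GOM, and CRY2, NR1D2, DBP and TEF were higher in ULB than in MAD, as over all libraries. In mtDNA-high libraries TEF was not called against MAD (0.58) or RAD (0.56), nor NR1D2 against MAD (0.58), all under the fold limit, while the other calls of ULB held. Within libraries of a PCG share of 88% or more NR1D2 against RAD (0.58) fell under that limit.

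Replicate numbers were taken to pair the samples for MAD with RAD and for MAD with ULB, where all 29 and all 30 same-numbered pairs deviated together. With the replicate number as a block, MAD to RAD gained a call of NR1D1 (-0.75, edgeR adjusted p = 0.00056). MAD to ULB then called DBP (0.79), NR1D2 (0.65) and NR1D1 (0.79), while CRY2 (0.54) and TEF (0.51) passed the adjusted p and missed the fold limit.

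Other cell types and stress-response genes moved along with the depots. Of 8 mesothelial markers 4 had a row (the defining MSLN and UPK3B did not), and their summed level in WG ran from 55.7 over a median of 177 to 705 TPM in GOM, against medians of 15.3 TPM in MAD, 11.3 TPM in RAD and 12.2 TPM in ULB. Of 13 immediate early genes tested, 11 were called higher in ULB than in GOM within WG and 0 were called between MAD or RAD and ULB. Their summed level had WG medians of 576, 1443, 1532 and 1129 TPM in GOM, MAD, RAD and ULB. Erythrocyte markers, with 3 tested, were all called lower in ULB than in each visceral depot, with a median sum of 903 TPM in ULB and of 1878 to 2273 TPM in the others. The 8 adipocyte markers gave 1 call higher in ULB than GOM, 1 higher and 2 lower than MAD, and 3 lower than RAD. All 5 T cell markers were called lower in ULB than in GOM and in MAD, with summed levels of 15.3 to 93.1 TPM in GOM, 12.6 to 242 TPM in MAD and 10.9 to 39.5 TPM in ULB of WG. Of 8 macrophage markers 4 were called lower in ULB than in GOM, and of 4 B cell markers tested 3 were called lower in ULB than in MAD. Summed levels of endothelial markers had group medians of 518 to 981 TPM, T cell markers 13.6 to 53.2 TPM, B cell markers 13.3 to 22.6 TPM and skeletal muscle markers 0.940 to 4.33 TPM. The part of these lists in the members' depot differences was not tested.

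The replicate numbers of WG allowed the members to be followed between depots. They were taken to pair samples only for MAD with RAD and for MAD with ULB. In GOM with RAD 33 of 37 same-numbered pairs deviated together (r above 0.1), and in GOM with MAD 33 of 35. Correlations of the depot pairs other than those 2 therefore rest on numbers whose pairing is less sure. Levels of PER1, PER2 and NR1D1 differed between the library sets. NR1D1 had no overlap in GOM, RAD and ULB, PER1 had none in GOM and RAD, and PER2 overlapped in every depot. Correlations are therefore given within the sets only, on the log2(TPM + 1) scale, over 13 to 21 numbers. The Benjamini-Hochberg adjustment was over the 54 tests of a set. Among mtDNA-high libraries 23 of 54 correlations were called, all positive and all by both Pearson's r and Spearman's rho. The share of all PCGs that would be called by this rule was determined for neither set. Against all tested PCGs in the mtDNA-high set, the members' r ranged widely. It lay above that of 5.37% of PCGs for CLOCK in RAD and ULB and of 99.3% for NR1D1 in GOM and RAD. In GOM and ULB the r of NR1D1 lay above 51.6%. NR1D1 in GOM and RAD had r = 0.83 (permutation, adjusted p = 0.0013) and rho = 0.79 (adjusted p = 0.00443) over 16 numbers, and r = 0.77 without the 2 samples farthest from the median. NR1D2 in GOM and MAD had r = 0.81 (permutation, adjusted p = 0.0013) and rho = 0.80 (adjusted p = 0.00306) over 17 numbers, with r = 0.75 without the farthest 2. PER1 in MAD and RAD had r = 0.79 (permutation, adjusted p = 0.00324) and rho = 0.85 (adjusted p = 0.00306) over 15 numbers, with r = 0.82 without the farthest 2. Of the 6 pairs of depots, PER2 and TEF were called in 4, PER1, CRY1, NR1D1 and NR1D2 in 3, DBP in 2, CRY2 in 1 and CLOCK in 0.

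In mtDNA-low libraries 5 of 54 were called, 3 of them NR1D2, and 1 held by both measures. That was NR1D2 in GOM and RAD, with r = 0.79 (permutation, adjusted p = 0.00054) and rho = 0.75 (adjusted p = 0.00864) over 21 numbers, and r = 0.64 without the farthest 2. Same-numbered libraries were alike over PCGs in general. The median r between depots over all tested PCGs was 0.15 to 0.43 within mtDNA-low and 0.29 to 0.45 within mtDNA-high libraries, and the members are read against that.

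Within a depot, members were correlated with each other over the WG libraries of 1 set. The 144 tests of a set share their libraries. In the mtDNA-high set 50 of 144 were called, 41 positive and 9 negative. As a background, 12.4% of all pairs of detected PCGs in these libraries had an r as far from 0 as the weakest pair of members called in the same depot, from 9.13% in ULB to 17.9% in MAD. DBP and TEF went together in all 4 depots, with r from 0.72 in RAD to 0.94 in GOM. There rho was 0.92, both permutation adjusted p were 0.00048, and r without the farthest 2 was 0.90, over 18 libraries. NR1D1 and NR1D2 had r from 0.69 to 0.78 and were called in 4 of 4 depots, as were NR1D1 and TEF (0.60 to 0.79), NR1D2 and TEF (0.58 to 0.79), and PER1 and PER2 (0.60 to 0.84). The negative pairs called most often were CLOCK and TEF (-0.64 to -0.18) and CRY1 and NR1D1, each in 2 of 4 depots. CRY1 and NR1D1 had r = -0.65 in GOM (permutation, adjusted p = 0.0167) and rho = -0.64 (adjusted p = 0.0238) over 18 libraries, and r = -0.56 without the farthest 2.

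In the mtDNA-low set 38 of 144 were called and all were positive. Here 18.3% of all pairs of detected PCGs reached the r of the weakest called pair, with 8.59% in ULB, 11.3% in RAD, 11.6% in MAD and 40.8% in GOM, so that in GOM the 10 of 36 pairs of members called lay below the background. PER2 and CRY2 had r from 0.72 to 0.77 and were called in 4 of 4 depots, as were PER1 and NR1D1 with r from 0.51 to 0.77. CRY2 and TEF were called in 3 of 4 (0.57 to 0.83). PER1 and NR1D1 were called in 0 of 4 depots among mtDNA-high libraries, and DBP and TEF in 1 of 4 among mtDNA-low ones. The difference between the sets was not tested.

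**Figure D4:**
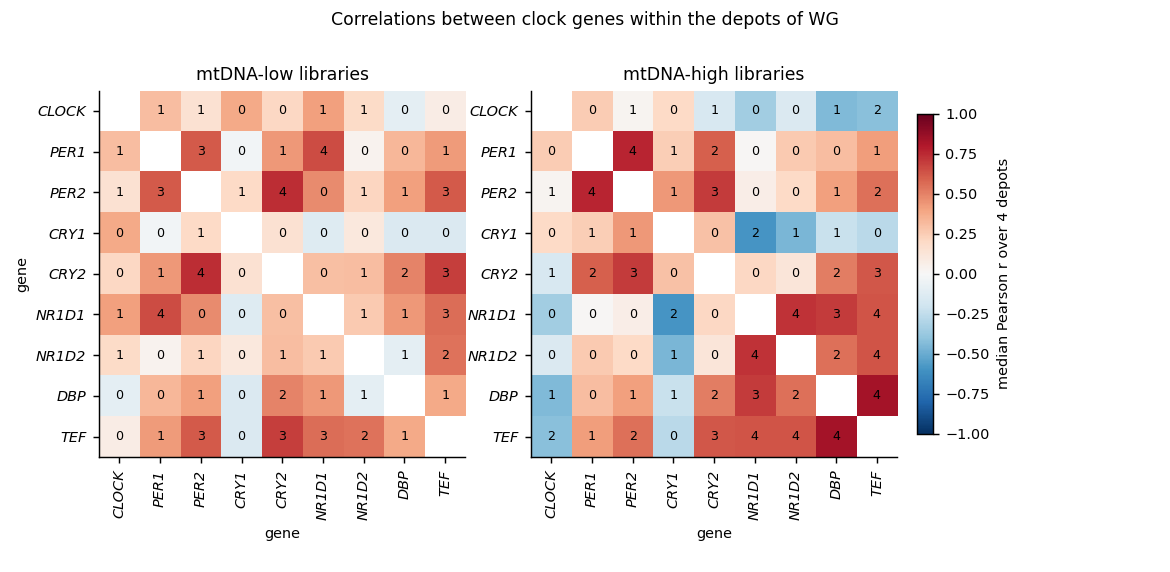
Median Pearson r over the 4 depots of WG between each pair of members (colour, from -1 to 1), in mtDNA-low libraries on the left and mtDNA-high libraries on the right; the number in a cell is how many of the 4 depots passed the adjusted permutation p. DBP with TEF (4 of 4) and NR1D1 with NR1D2 (4 of 4) stand out on the right, and PER2 with CRY2 and PER1 with NR1D1 (4 of 4 each) on the left.

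Other genes of the pathway were read from a list of 24, of which 23 had a row and 22 were tested in every comparison shown. From NC to WL 8 of 22 were called lower and 0 higher in GOM (36.1% of all PCGs called), 6 and 1 in MAD (33.1% called), 8 and 0 in RAD (26.7% called), and 9 and 0 in ULB (14.8% called). The counts in GOM and MAD are those of the background. Within mtDNA-low libraries 3, 3 and 6 were lower and 0 higher in MAD (8.83% of all PCGs called), RAD (11.7% called) and ULB (10.6% called). The counts in MAD and RAD lay near that background. BMAL1 itself was called in 0 of 18 comparisons by edgeR, with 4 at an unadjusted p below 0.05.

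BMAL2, the paralogue of BMAL1 that also pairs with CLOCK, was called most often, in 13 of 18 comparisons. It fell from WG to WL in all 4 depots, with log2 fold changes of -1.38 in GOM (edgeR adjusted p = 1.41e-06), -1.53 in MAD (adjusted p = 1.01e-05), -1.21 in RAD (adjusted p = 0.000327) and -1.03 in ULB (adjusted p = 4.57e-06). Unlike NR1D1 and PER1, it kept these falls within mtDNA-low libraries, at -1.59, -1.70, -1.43 and -1.31. Values within libraries of a PCG share of 88% or more are not given here for BMAL2 or the other genes of that list. In WG BMAL2 was higher in ULB than in GOM by 1.43.

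CIART, a repressor of CLOCK and BMAL1, was called in 11 of 18, and within mtDNA-low libraries fell from WG to WL by 0.94 in GOM (edgeR adjusted p = 0.0073) and 1.35 in ULB (adjusted p = 1.91e-07) on the log2 scale. BHLHE40, which competes for E-boxes, was called in 9 of 18 and was higher in ULB than in GOM of WG by 1.64, with 1.42 and 1.59 in mtDNA-low and mtDNA-high libraries. HLF, the PAR-bZIP relative of DBP and TEF, and NPAS2, the paralogue of CLOCK, were each called in 5 of 18, all lower, and none of those falls was called within a set. NPAS2 instead rose by 0.68 from WG to WL in GOM within mtDNA-low libraries (adjusted p = 0.0122).

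Glucocorticoid-induced genes went both ways. From NC to WL in MAD 2 of 8 were called higher and 3 lower (33.1% of all PCGs called), and in RAD 3 higher and 1 lower (26.7% called). From WG to WL in MAD 1 was called higher and 3 lower (17.4% of all PCGs called). Immediate early genes were called higher in 7 of 13 from NC to WG in RAD (16.7% of all PCGs called) and in 7 of 13 from NC to WL in RAD (26.7% called).

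The genes whose pattern was most like that of a member were sought over 15059 PCGs, as Pearson's r over all libraries after the mean of each group was removed. SP2 came closest to NR1D1 with r = 0.93, TNS2 to PER1 with 0.94 and MYO9A to CLOCK with 0.85. Where the library sets were removed too, the gene closest to NR1D1 was PTCH1 with 0.58, that closest to PER1 was SORBS3 with 0.79 and that closest to CLOCK was DICER1 with 0.87. For PER2 (ARHGAP23, 0.91 and 0.76), CRY2 (ZNF687, 0.72), TEF (ZNF395, 0.68 and 0.66), DBP (CBX6, 0.66) and NR1D2 (SENP7, 0.59 and 0.56) the same gene led both ways. BHLHE41, a clock repressor, was the third for DBP with r = 0.61 once the sets were removed. The points share library, depth and composition, and no test was made.

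Chromatin at the members was read from Hi-C as the A-B index, a score per 20-kb bin that is positive in the open A compartment and negative in the closed B compartment, in 240 samples. PER1 lay in the most open bin of the 10 members, with a mean index of 7.01, higher than 99.8% of the 113298 bins. All members other than CRY1 lay in bins with a mean of 3.90 (TEF) to 7.01, above 89.97% to 99.8% of bins, and none was negative in any sample. CRY1 stood apart with a mean of 0.84, above 60.0% of bins, and was negative in 16 of 240 samples. Its bin, at 13260001 to 13280000 on chromosome 5 of Sscrofa11.1, holds the start of the gene.

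Across nutritional states, calls of the index (limma, adjusted p below 0.05 and a difference above 0.75) fell on CRY2, DBP and NR1D2, all toward a higher index in the later state. That direction was shared by most called bins. From NC to WL in RAD 17254 bins were called higher and 667 lower and the median bin moved by 0.28, and in GOM 10867 were called higher and 585 lower. With the index quantile normalized between samples, the counts in RAD became 6138 and 4718. In RAD the CRY2 bin held 4.20 to 5.33 with a median of 4.89 in NC, 3.79 to 6.61 with a median of 5.42 in WG, and 5.39 to 6.56 with a median of 6.08 in WL. NC and WL did not overlap there. The DBP bin in RAD held 3.13 to 4.49 with a median of 3.84 in NC, 3.60 to 5.60 with a median of 4.46 in WG, and 4.73 to 5.30 with a median of 5.01 in WL, again without overlap of NC and WL. NC to WL in RAD gave differences of 1.22 ± 0.17 for CRY2 (limma adjusted p = 6.63e-06) and 1.19 ± 0.14 for DBP (adjusted p = 4.52e-07), where 15.8% of all bins were called. Quantile normalization left both called, at 0.85 and 0.79. It called 3 members from NC to WL in RAD, 2 in MAD and 1 in GOM, among them members not called without it. The upward direction given above holds for the calls without normalization, and that of the added calls is not given here. Not every member went up. Before normalization the mean index in RAD fell, without a call there, from 4.80 in NC to 4.26 in WL for CLOCK. For CRY1 it fell from 1.29 to 0.99.

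The same bins were called from NC to WL in MAD, by 1.14 ± 0.23 for CRY2 (limma adjusted p = 0.000774) and 1.13 ± 0.16 for DBP (adjusted p = 2.77e-05, 11.2% of all bins called). CRY2 and NR1D2 were called from NC to WL in GOM, by 0.93 ± 0.27 and 0.78 ± 0.23 (limma adjusted p = 0.025 and 0.0253, 10.1% called), and from NC to WG in MAD, by 0.77 and 0.79 (adjusted p = 0.00105 and 0.00297, 4.47% called). Under quantile normalization these 4 values were 0.49, 0.34, 0.38 and 0.45, none was called, and in MAD the NC to WL value of DBP was 0.74, under the limit of 0.75. Averaging all bins of a gene also ended the 4 calls, and that of CRY2 from NC to WL in MAD (0.63). DBP was called from NC to WG in ULB, by 0.86 ± 0.29 (adjusted p = 0.0459, 6.15% called), and lost this call without NC ULB replicate 5, 9 or 12, with a range of 0.70 to 1.00 over the 5 libraries left out in turn. WG to WL gave 0 calls of a member in any depot, where 2.53% (GOM), 1.01% (MAD), 3.83% (RAD) and 9.96% (ULB) of bins were called and 3, 4, 4 and 3 of 10 members had an unadjusted limma p below 0.05. Nor was a member called from NC to WG in GOM (2.79% of bins called) or RAD (4.32%), or from NC to WL in ULB (13.6%), with 3, 3 and 1 members at an unadjusted p below 0.05.

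For DBP the index and the transcript went in opposite directions in RAD. Its bin was called higher from NC to WL while its RNA fell by 1.12 on the log2 scale, and in MAD the NC to WL difference of the RNA was not called. The same contrast of CRY2 RNA in RAD was 0.13 ± 0.19, not called. Index and RNA were measured in libraries of the same groups. By the paper's methods, Hi-C was made from the adipocyte layer after centrifugation, and RNA was extracted from the adipose tissue. The relation of index and RNA was not tested.

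**Figure D5:**
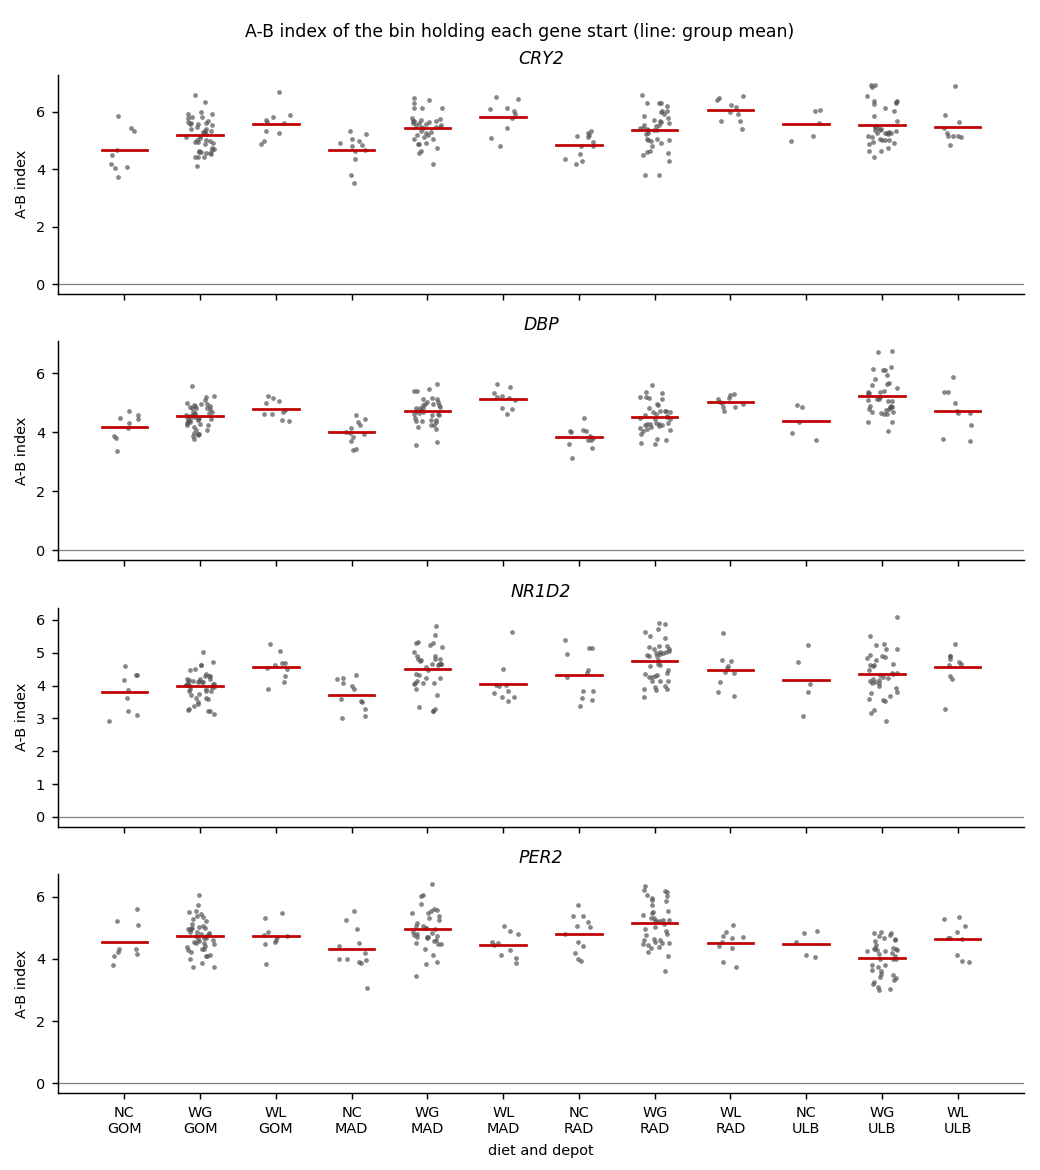
A-B index (y axis, no unit) of the bins of CRY2, DBP, NR1D2 and PER2 in each Hi-C sample of the 12 groups (x axis), with the group mean as a line. In RAD the 10 WL samples of CRY2 (5.39 to 6.56) and DBP (4.73 to 5.30) all lie above the 12 NC samples (4.20 to 5.33 and 3.13 to 4.49).

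Between depots of WG the called bins were those of PER2, PER3, CLOCK and NR1D2. PER2 was less open in ULB, where its bin held 3.02 to 4.85 with a median of 4.16, against medians of 4.85 in MAD and 5.20 in RAD. The difference of ULB was -0.92 ± 0.13 to MAD (limma adjusted p = 1.7e-08, 12.1% of all bins called) and -1.11 ± 0.14 to RAD (adjusted p = 1.21e-10, 11.3% called). PER3, for which no RNA was read, was more open in ULB than in GOM by 0.83 ± 0.09 (adjusted p = 1.01e-13, 18.8% called), with medians of 4.82 and 3.98. CLOCK and NR1D2 had a higher index in RAD than in GOM, by 0.77 ± 0.13 and 0.76 ± 0.11 (adjusted p = 3.73e-07 and 6.31e-09, 12.0% called), and both were under the limit with quantile normalization (0.65 and 0.66) and with gene means (0.66 and 0.53). The gene mean of PER2 between MAD and ULB was under it too (-0.64). PER2 RNA was not called between RAD and ULB (log2 fold change 0.03 ± 0.22), and NR1D2, whose RNA was higher in ULB, had no call of the index there. GOM to MAD (6.27% of bins called) and MAD to RAD (1.24%) had no member called, with 6 and 2 of 10 at an unadjusted p below 0.05.

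Regions of H3K27ac, a mark of active enhancers and promoters, were read from 18 tables of pooled samples without replicates, so that they carry no test. NR1D1 had a super-enhancer, a dense cluster of such regions, within 10 kb in 17 of 18 tables, PER1 and TEF in 15, CRY2 in 12 and DBP in 8. CLOCK, CRY1, NR1D2, PER2 and PER3 had one in 0 of 18. Of 18725 genes, 5.72% to 27.8% had a super-enhancer by the same rule, depending on the table. Regions of any kind lay at every member in all 18 tables, except at PER1 and DBP, each with 17. By the same rule 65.2% to 85.6% of the 18725 genes had a region, depending on the table. Within 10 kb, the median ratio of H3K27ac to input signal was highest at PER1 (3.95) and NR1D1 (3.48) and lowest at NR1D2 (1.80) and CLOCK (1.49). For regions that overlap the gene itself, NR1D2 had 2.17, above PER3 with 2.11, and CLOCK stayed at 1.49. The abundant transcript of CLOCK thus came from the locus with the lowest ratio of the 10 either way, whereas the rank of NR1D2 depended on the flank.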

How the data were processed

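Adipose RNA-seq, Hi-C and H3K27ac ChIP-seq of the 12 groups of diet and depot were read as deposited. The authors quantified RNA with kallisto 0.43.0 and deposited estimated counts and TPM per gene. They deposited the A-B index of each 20-kb Hi-C bin as a score, and signal tables of H3K27ac regions from pooled samples (BWA 0.7.15, SAMtools 1.3.1 and SICER per the labels). Hi-C domain calls were not used, nor were 9 columns that match no label.

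Estimated counts were rounded, a PCG was kept where 80% or more of the libraries in a group exceeded 0.5 TPM, and edgeR 4.0.16 (R 4.3.3; TMM, quasi-likelihood, no block, after the study's limits) tested the groups compared. Calls needed a Benjamini-Hochberg adjusted p below 0.05 over all PCGs and a fold change above 1.5. The index was tested with limma 3.58.1 at the bin of the gene start. Correlations used 100000 permutations, whose smallest p is 1e-05. Scripts were tested on simulated data. No pair of libraries held identical values. Depth limits NR1D1, DBP and PER2 most.

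The members and the gene lists were chosen with earlier results of these data known. Named genes were all members, the 6 other clock genes called in most comparisons (1 of these, and the promoter window of 1 member, are not reported here), and the genes with the highest r to each member. The library sets were defined after the data were seen, by a share of 10% of PCG TPM on mtDNA-encoded genes. Same-numbered WG libraries deviated together (r above 0.1 in every pair) for MAD with RAD (29 of 29, median r 0.43) and MAD with ULB (30 of 30, median r 0.39), but in 26 of 31 to 33 of 35 pairs elsewhere; the labels give the number and do not say that it marks a pig. Where nothing ties libraries to separate pigs, p-values measure the spread between these libraries. Alternatives were relative log expression size factors, DESeq2 1.42.0, no filter, no fold limit, PCG share sets, the replicate block, NC ULB libraries left out in turn, another pseudocount, log2 CPM, removal of the first principal component, quantile normalization or gene means of the index, no index limit and no flank.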

Additional observations from a re-analysis of the deposited data

Results flagged for a closer look

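Of 54 groups of 4 to 10 RNA libraries and 60 of Hi-C samples, 2 and 4 held a value set apart from the rest of its group by more than Dixon's 95% limit, which chance exceeds in about 1 of 20 groups. CRY1 RNA was at 2.84 TPM in NC GOM replicate 7, with the others at 7.66 to 17.04 TPM, and at 24.9 TPM in WL GOM replicate 8, with the others at 11.8 to 16.4 TPM. The A-B index of CLOCK was 5.32 in NC ULB replicate 5 (others 4.17 to 4.498), and that of CRY1 was -0.13 in NC ULB replicate 9 (others 0.67 to 0.69). CRY2 had an index of 6.91 in WL ULB replicate 10 (others 4.84 to 5.88), and NR1D2 of 5.61 in WL MAD replicate 1 (others 3.54 to 4.49).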

How the results depend on the processing

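Counts of called members moved as follows, from the value in the report to that under the alternative; unless named, the cause was not tested. With DESeq2, WG to WL in GOM went from 0 to 1. Without the filter, WG to WL in RAD went from 0 to 1, since NR1D1 then entered the test. Without the fold limit, counts rose to 1 for WG to WL in GOM, 5 for NC to WG in MAD and in RAD, 1 for GOM to MAD, 2 for GOM to RAD, 4 for GOM to ULB and 1 for MAD to RAD. A term for the PCG share set gave 1 for WG to WL in MAD, 1 for NC to WG in RAD and 1 for the interaction of NC to WG (DBP, adjusted p = 0.0234 against 0.138 without it). Libraries of high PCG share alone gave 0 for NC to WG in GOM, 0 for WG to WL in MAD, 1 for NC to WG in RAD and 1 for NC to WL in ULB. Left out in turn, NC ULB libraries gave 1 to 2 calls from NC to WL in ULB and 0 to 1 for the index from NC to WG in ULB; there NR1D1 ran from -3.64 to -2.97 and NR1D2 from -0.92 to -0.65.

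Alternatives on the mtDNA sets were added after the data were seen. As a term, the set gave 0 calls for NC to WG in GOM, 1 for WG to WL in GOM, 1 for WG to WL in MAD, 1 for NC to WL in MAD, 0 for NC to WL in RAD, 1 for NC to WL in ULB and 1 for GOM to RAD. Within mtDNA-high libraries the counts were 0, 1 and 1 for NC to WG in GOM, MAD and RAD, and 1 for GOM to RAD; correlations called went from 46 to 23 between depots and from 80 to 50 between members, the wider sets being pooled over 2 clusters. Within mtDNA-low libraries they were 0 for NC to WG in MAD, 1 for NC to WL in MAD, 1 for NC to WG in RAD, 0 for NC to WL in RAD, 1 for NC to WL in ULB and 1 for GOM to RAD, with 5 and 38 correlations. Signs turned for PER1 from NC to WL in MAD (0.16 with the term, 0.14 within mtDNA-low) and in RAD (0.29 and 0.28), for NR1D1 from WG to WL in MAD (0.80 and 0.78) and in ULB (0.056 and 0.021), and for DBP from WG to WL in MAD under the PCG share term (-0.19) and within high PCG share (-0.56).

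The replicate block gave 1 call for GOM to RAD and 1 for MAD to RAD, and for the index 1 for GOM to MAD (PER3, 0.77) and 2 for RAD to ULB. With the block, mtDNA-high libraries gave 1 for GOM to RAD and 4 for GOM to ULB, and mtDNA-low libraries 1 for GOM to RAD and 2 for MAD to ULB. For the index, gene means gave 0 for NC to WL in GOM, 0 for NC to WG in MAD, 1 for NC to WL in MAD, 0 for GOM to RAD and 0 for MAD to ULB. Quantile normalization gave 1, 0 and 0 for NC to WL in GOM, NC to WG in MAD and GOM to RAD, and 3 for RAD to ULB. Without the index limit counts were 2 (WG to WL in GOM), 6 (NC to WG in MAD), 2 (NC to WG in RAD), 3 (WG to WL in RAD), 2 (WG to WL in ULB), 4 (GOM to MAD), 5 (GOM to RAD), 6 (GOM to ULB), 1 (MAD to RAD), 4 (MAD to ULB) and 6 (RAD to ULB). Size factors, pseudocount, log2 CPM, exclusion of low-share libraries from the correlations, principal component residuals and the flank moved no such count by more than 1.5 times. Low levels limit NR1D1, DBP and PER2, and NC groups of 2 or 3 libraries limit the comparisons within a set.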

Other observations

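Of the other clock genes, 3 were picked here after their values were seen. NAMPT, the enzyme that limits NAD+ synthesis and is itself a target of CLOCK and BMAL1, fell from WG to WL within mtDNA-low libraries by 0.82 ± 0.22 on the log2 scale in GOM (edgeR adjusted p = 0.00936), 0.77 ± 0.22 in MAD (adjusted p = 0.0111) and 0.80 ± 0.13 in ULB (adjusted p = 2.29e-05). Over all libraries the GOM value was -0.63 (adjusted p = 0.0447), and MAD and ULB were not called. NFIL3, which competes with DBP and TEF for D-boxes, was higher than in GOM of WG by 1.10 ± 0.13 in RAD (adjusted p = 1.74e-11) and 0.99 ± 0.13 in ULB (adjusted p = 2.31e-10), and was called in both library sets. NOCT, a rhythmic phosphatase, was also higher outside GOM, by 0.87 ± 0.14 in MAD (adjusted p = 8.34e-07), 1.28 ± 0.14 in RAD (adjusted p = 2.93e-12) and 0.89 ± 0.18 in ULB (adjusted p = 2.12e-05), and held in both sets. Immediate early genes differed between the same depots, with 10, 12 and 11 of 13 called higher in MAD, RAD and ULB than in GOM; their part in these differences was not tested.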
